A study of Sus scrofa with 599 samples.

Results

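The 10 genes described here carry out or control de novo lipogenesis, the synthesis of fatty acids from glucose carbon. They were chosen by symbol: FASN, ACACA, ACLY, SCD, ELOVL6, ME1, SREBF1, MLXIPL, THRSP and ACSS2. All 10 were found among the 21280 coding genes of the deposited expression tables, and all 10 passed the filter on low values in every comparison. The filter kept genes above 0.5 TPM in at least 80% of the libraries of a group.

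The animals were adult female Bama pigs, a miniature breed, in 3 nutritional groups. Normal control (NC) pigs ate a normal diet, weight gain (WG) pigs ate a high-fat diet for a prolonged period, and weight loss (WL) pigs first ate the high-fat diet and then underwent severe caloric restriction. From each group 3 visceral fat depots were taken, the greater omentum (GOM), mesenteric fat (MAD) and retroperitoneal fat (RAD), together with 1 subcutaneous depot, the upper layer of backfat (ULB). RNA-seq covered 236 libraries, with 9, 12, 12 and 5 NC, 45, 36, 39 and 38 WG, and 10, 10, 10 and 10 WL libraries in GOM, MAD, RAD and ULB. The replicate numbers of the labels name separate samples of a group. Hi-C covered 240 libraries, and H3K27ac ChIP-seq was deposited as 18 tables of pooled replicates.

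In de novo lipogenesis, citrate exported from mitochondria is cleaved to acetyl-CoA by ACLY, while ACSS2 makes acetyl-CoA from acetate. Acetyl-CoA carboxylase (ACACA) makes malonyl-CoA, fatty acid synthase (FASN) builds palmitate from it with NADPH that ME1 helps supply, and ELOVL6 and SCD lengthen and desaturate the product. The pathway is known to be driven by insulin through SREBF1 and by glucose through MLXIPL (ChREBP), with THRSP as a lipogenic co-regulator, and in pigs adipose tissue is its main site.

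The sequence before each gene start was read from the Sscrofa11.1 assembly with RefSeq gene starts, 250 bases upstream on the gene's strand. The sequences of FASN, SCD, ACLY and THRSP are shown because the results below turn on these genes. They lie on the plus strand at chr12:922155-922404 (FASN), chr14:111461310-111461559 (SCD), chr12:20796428-20796677 (ACLY) and chr9:12479663-12479912 (THRSP). Capitals mark ATTGG or its reverse complement CCAAT, the box bound by nuclear factor Y.
FASN: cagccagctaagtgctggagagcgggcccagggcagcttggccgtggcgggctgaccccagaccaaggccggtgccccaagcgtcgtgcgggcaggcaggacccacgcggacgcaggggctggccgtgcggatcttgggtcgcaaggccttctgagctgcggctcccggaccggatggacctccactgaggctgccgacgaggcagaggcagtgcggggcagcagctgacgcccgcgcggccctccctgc
SCD: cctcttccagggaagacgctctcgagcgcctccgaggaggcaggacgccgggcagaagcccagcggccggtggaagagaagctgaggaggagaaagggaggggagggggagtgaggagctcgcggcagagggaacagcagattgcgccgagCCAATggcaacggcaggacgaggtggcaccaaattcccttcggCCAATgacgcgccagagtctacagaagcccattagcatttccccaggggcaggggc
ACLY: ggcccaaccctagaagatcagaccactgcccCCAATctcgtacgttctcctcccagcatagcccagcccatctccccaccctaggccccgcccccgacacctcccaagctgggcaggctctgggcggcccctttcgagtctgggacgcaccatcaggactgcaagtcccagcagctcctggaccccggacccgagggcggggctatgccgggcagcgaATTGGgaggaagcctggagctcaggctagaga
THRSP: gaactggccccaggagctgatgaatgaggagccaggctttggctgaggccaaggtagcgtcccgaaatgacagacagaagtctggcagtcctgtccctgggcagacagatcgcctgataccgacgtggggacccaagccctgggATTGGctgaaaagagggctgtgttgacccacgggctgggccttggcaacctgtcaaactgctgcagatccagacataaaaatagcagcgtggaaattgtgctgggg
Letters of either strand were searched in the same window of all 10 genes and of 18680 genes in all. The CCAAT box was present in 4 of the 10 (ACLY, SCD, ELOVL6 and THRSP) and in 31.69% of all windows, and the GC box GGGCGG in 6 of the 10 and in 46.12%. The sterol response element TCACNCCAC was in 0 of the 10 windows and in 0.81% of all, and the E-box CACGTG in 0 of the 10 and in 6.39%. A carbohydrate response element, with a pair of E-boxes spaced by 5 bases, was in 0 of the 18680 windows. These are matches of letters in short windows only.

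Expression was given as TPM, a transcript abundance scaled for transcript length and library total, so that levels of different genes can be set side by side. Ranked by median TPM among 15068 expressed genes, THRSP stood between rank 56 and rank 165 in every one of the 12 groups, and FASN between rank 52 and rank 145 in the 8 NC and WG groups. In the 4 WL groups FASN stood between rank 3788 and rank 6189. SCD was the 7th most abundant of these transcripts in WG backfat, and both transcription factors ranked well below these, SREBF1 between 3631 and 8509 and MLXIPL between 1953 and 10642 over the 12 groups.

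**Figure D1:**
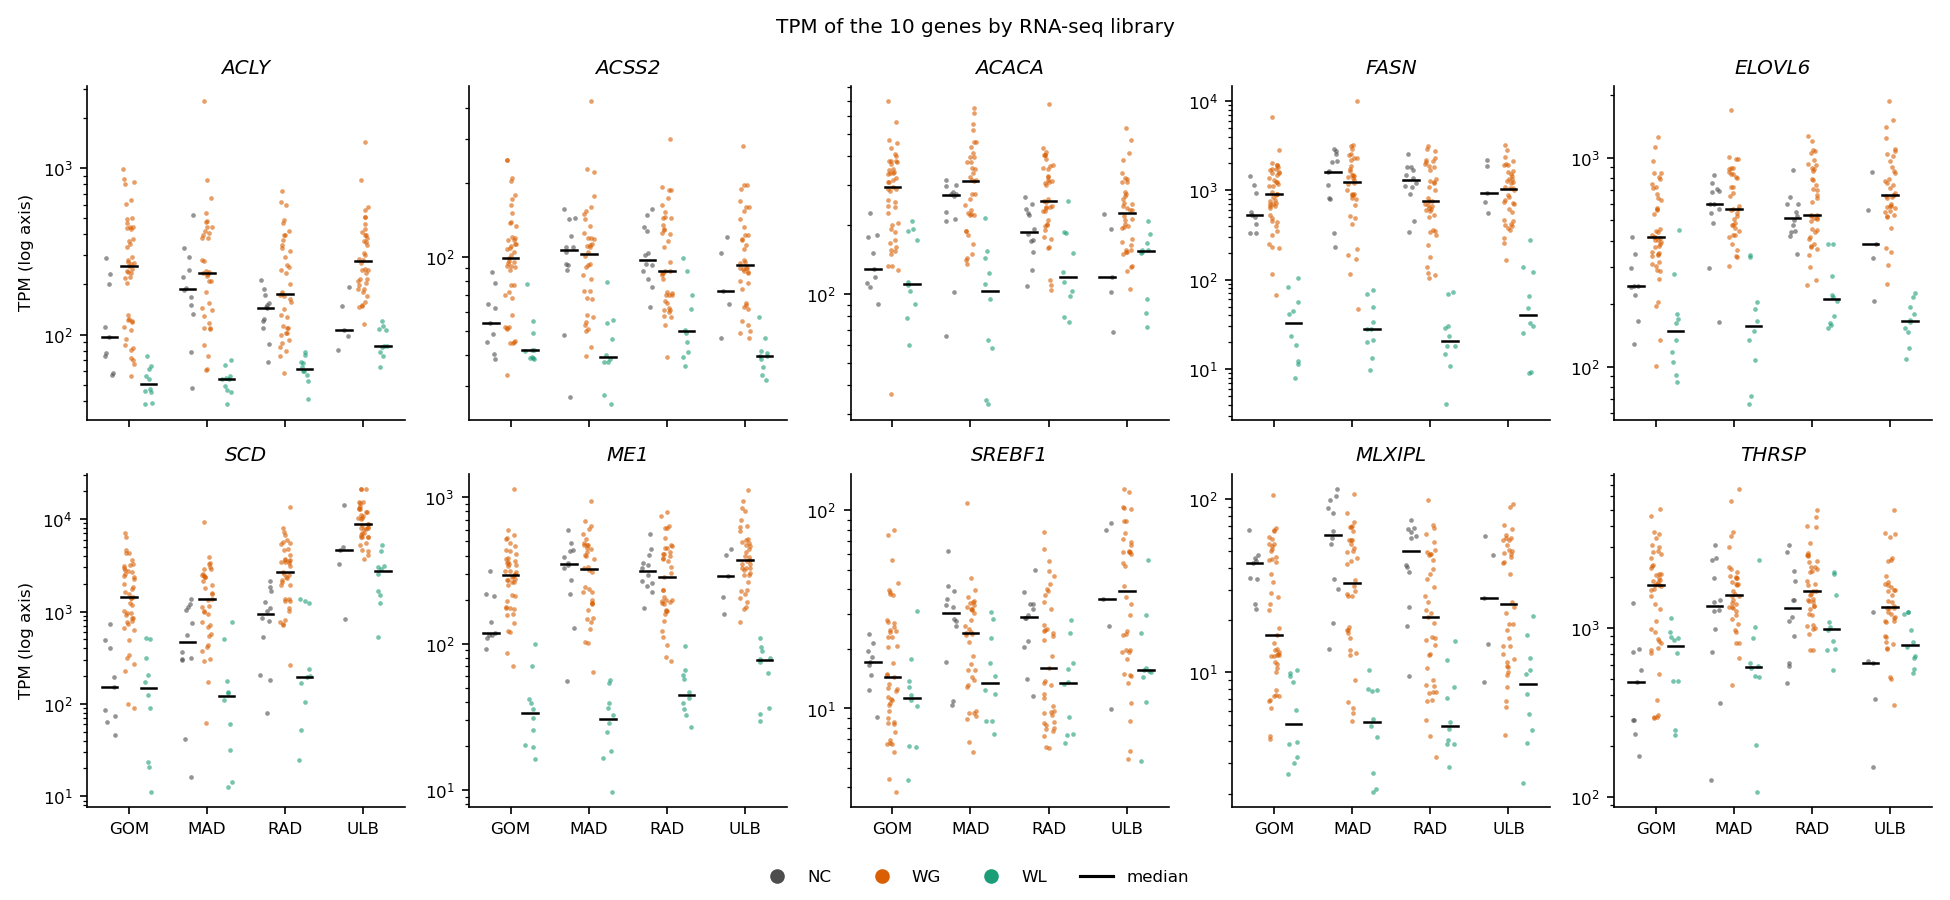
TPM of the 10 lipogenic genes on a log axis, each point 1 RNA-seq library, in the 12 groups of diet by depot, with bars at the group medians. FASN falls from medians of 761 to 1248 in the WG groups to 20.8 to 40.7 in the WL groups, whereas THRSP medians stay between 480.5 and 1796 in all groups.

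Libraries held 3337098 to 22939420 estimated counts on coding genes, with a median of 16791659. Coding genes took less than 88% of all TPM in 40 of the 236 libraries, among them 7 of 9 in NC GOM and 6 of 10 in both WL GOM and WL MAD, so counts of calls are also given without them where they move. Adipocyte markers were detected in every group (8 of 8 matched genes, CIDEA not matched), and milk protein genes CSN2 and CSN3, markers of mammary tissue that could adjoin backfat, were listed at a median of 0 in all 12 groups. LTF, on the same list, had a median of 2.57 TPM in NC ULB and at most 0.44 in the other groups, and 1 of 2 tested genes of the list was higher in NC ULB than in each visceral NC depot, 1 of 2 lower in WG ULB and 2 of 2 lower in WL ULB than in NC ULB. Markers of other tissues stood out in 5 libraries. The 5 liver markers summed to 14626 TPM in NC RAD replicate 7 and 8590 in WL GOM replicate 10, against at most 3637 in the others, and the 7 T and B cell markers summed to 502 TPM in WG MAD replicate 31 and to 1094 and 823 in WL MAD replicates 6 and 7, against at most 428. Calls that changed without these 5 are given beside the result. In bulk tissue, fewer cells of a type and less RNA per cell cannot be told apart.

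Weight loss after weight gain was compared within each depot, to see which lipogenic transcripts differed between high-fat-fed and calorie-restricted pigs. Nearly the whole pathway was lower in WL: 9 of the 10 genes in each visceral depot and 10 of 10 in backfat, and none was higher. A gene was called when edgeR's quasi-likelihood test with Benjamini-Hochberg adjustment over all tested genes gave an adjusted p under 0.05 and the fold change exceeded 1.5. The same rule called 2.71%, 9.17%, 4.13% and 4.90% of all tested genes lower in GOM, MAD, RAD and ULB. The median log2 fold change of the 10 genes, WL over WG, was -1.93, -2.36, -1.76 and -1.97, against -0.04, -0.02, -0.01 and -0.02 for all tested genes.

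FASN, the multi-enzyme that assembles palmitate, had the largest fold change of the 10 in every depot. In GOM its TPM ran from 66.8 through a median of 899 to 6563 in WG and from 7.90 through 32.5 to 104 in WL. In MAD the lowest, median and highest values were 47.3, 1248 and 9973 in WG and 9.82, 27.8 and 76.1 in WL. These ranges overlapped only at the lowest WG and the highest WL libraries. RAD gave 103, 761 and 3161 in WG against 4.01, 20.8 and 72.5 in WL, 2 ranges that did not overlap. Backfat gave 167, 1039 and 3192 in WG and 9.01, 40.7 and 279 in WL, with overlap. FASN was 47.4-fold lower in MAD (log2 fold change -5.57 ± 0.64 SE, edgeR adjusted p = 5.5e-08), 39.6-fold in RAD (-5.31 ± 0.60, 1.2e-08), 30.5-fold in GOM (-4.93 ± 0.56, 1.2e-08) and 15.5-fold in ULB (-3.96 ± 0.50, 9.6e-08).

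Both enzymes that supply acetyl-CoA were lower in WL in each depot, with the larger fold change for ACLY. ACLY TPM had WG medians of 257, 234, 175 and 275 in GOM, MAD, RAD and ULB and WL medians of 50.5, 53.9, 62.3 and 85.3. Its WL libraries lay between 38 and 119.8 over all depots, inside or below the WG range of 56.0 to 2529. The log2 fold changes were -2.61 ± 0.40, -2.76 ± 0.47, -2.02 ± 0.35 and -1.99 ± 0.30 in that order (edgeR adjusted p from 3.0e-06 to 8.1e-05). ACSS2, the cytosolic acetate-activating enzyme, had WG medians of 87.6 to 103 TPM and WL medians of 39.4 to 50.01 TPM. Its log2 fold change lay between -0.92 and -1.52, with edgeR adjusted p from 2.3e-06 to 0.0068. ACACA, which commits acetyl-CoA to fatty acid synthesis, showed the smallest drop of the enzymes in ULB. Its medians were 226 to 313 TPM in WG and 103 to 154 TPM in WL, and the ranges overlapped in all 4 depots. The log2 fold changes were -1.21 ± 0.24, -1.71 ± 0.27, -1.12 ± 0.21 and -0.88 ± 0.20 in the same order (edgeR adjusted p from 7.8e-06 to 0.0012).

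ME1, which yields cytosolic NADPH from malate, was separated between WG and WL without overlap of ranges in 2 depots, MAD and ULB. In MAD its TPM was 63.9, 323 and 949 (lowest, median, highest) in WG and 9.68, 30.9 and 56.3 in WL. In ULB it was 141, 371 and 1127 in WG and 29.5, 77.4 and 109.5 in WL. In GOM and RAD the ranges overlapped. The log2 fold change was -3.07 ± 0.33, -3.52 ± 0.39, -2.73 ± 0.34 and -2.76 ± 0.29 in GOM, MAD, RAD and ULB (edgeR adjusted p from 1.3e-09 to 1.5e-07).

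SCD, the desaturase that makes oleate, fell 4.08-fold in ULB and by larger folds in RAD (6.92-fold), MAD (9.53-fold) and GOM (9.94-fold). Backfat kept a high level all the same: its WL libraries ran from 531 through 2727 to 5188 TPM, against 3706, 8821 and 21170.1 in WG. In GOM the values were 89.3, 1421 and 7157 TPM in WG and 11.06, 148 and 522 in WL. The ranges overlapped in each depot. The log2 fold change was -3.31 ± 0.59, -3.25 ± 0.63, -2.79 ± 0.54 and -2.03 ± 0.29 in the same order of depots (edgeR adjusted p from 1.8e-06 to 3.7e-04). ELOVL6, which elongates palmitate to stearate, fell most in ULB, where WG libraries held 248, 661 and 1860.4 TPM and WL libraries 109, 165 and 226 TPM without overlap. Its log2 fold change was -2.28 ± 0.22 in ULB (edgeR adjusted p = 4.0e-10) and lay between -1.5 and -1.96 in the visceral depots.

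The 3 regulators moved unequally. MLXIPL, the glucose-responsive factor ChREBP, had WG medians of 16.4, 32.7, 21 and 24.7 TPM in GOM, MAD, RAD and ULB and WL medians of 5.04, 5.15, 4.93 and 8.62 TPM. It was lower in WL in all 4 depots, with log2 fold changes of -2.29 ± 0.45, -2.87 ± 0.43, -2.15 ± 0.44 and -1.94 ± 0.41 (edgeR adjusted p from 5.9e-06 to 8.1e-04). SREBF1, which encodes the insulin-responsive factor SREBP-1, passed the test in ULB alone, where WG libraries ran from 5.59 through 39.1 to 128 TPM and WL libraries from 5.46 through 15.6 to 56.1 TPM (log2 fold change -1.28 ± 0.40, edgeR adjusted p = 0.020). In GOM, MAD and RAD its log2 fold change was -0.77 ± 0.36, -0.65 ± 0.30 and -0.73 ± 0.35, with edgeR adjusted p of 0.18, 0.089 and 0.16. THRSP remained among the more abundant transcripts in WL, with medians of 589 to 989 TPM against 1336 to 1796 TPM in WG, and its log2 fold change was -1.47 ± 0.36, -1.43 ± 0.36, -0.81 ± 0.26 and -1.02 ± 0.29 (edgeR adjusted p from 0.0022 to 0.034).

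**Figure D2:**
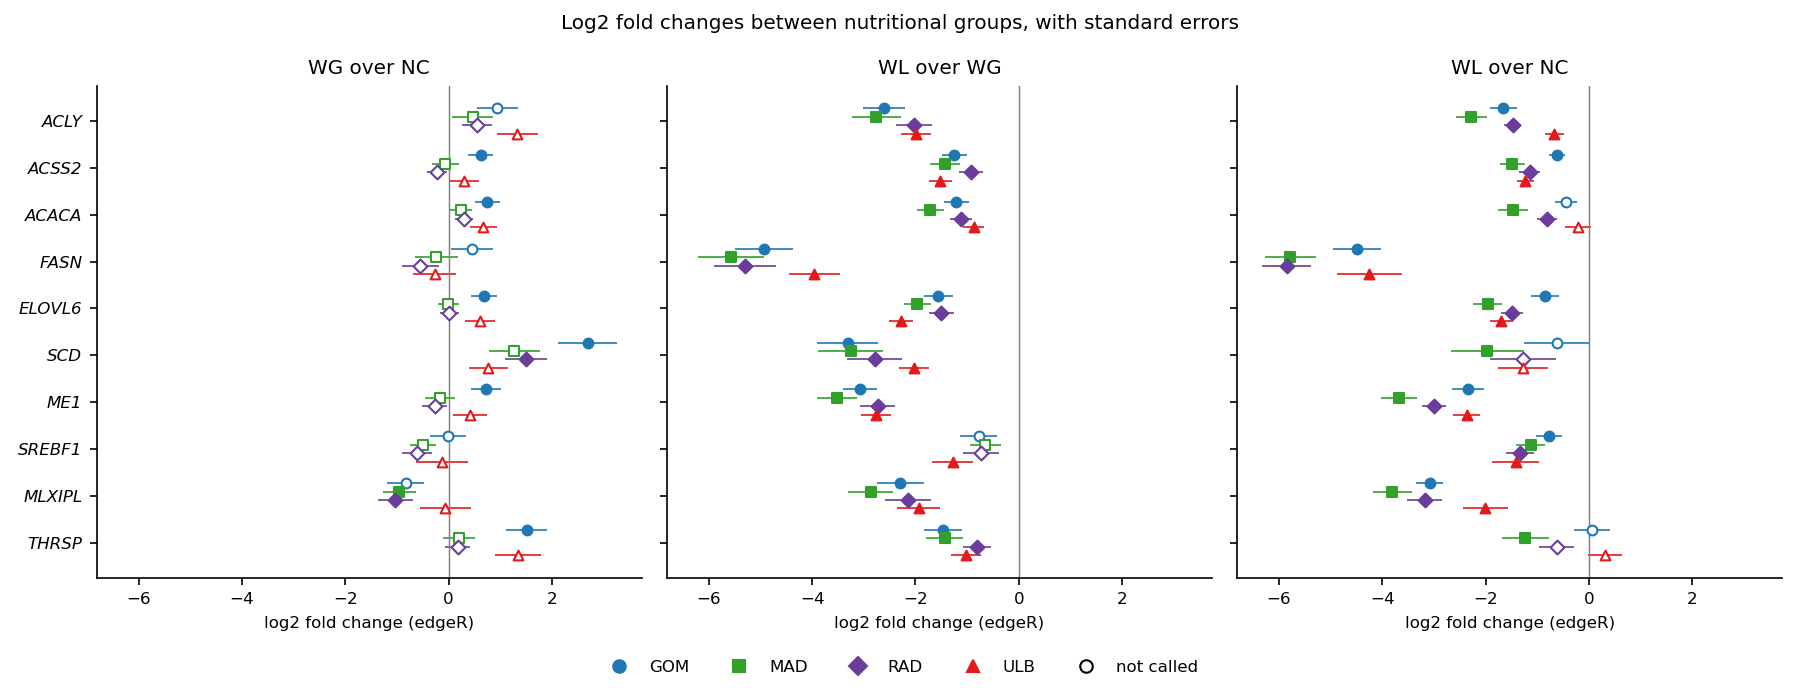
Log2 fold change of each of the 10 genes in 4 depots for WG over NC, WL over WG and WL over NC, with bars of 1 SE, where filled points passed an adjusted p under 0.05 and a fold over 1.5 by edgeR. In WL over WG every FASN point lies between -5.57 and -3.96, and in WG over NC the FASN points lie between -0.55 and 0.45 and none is filled.

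With the libraries under the 88% share left out, 5 of the 10 genes were called in GOM (ME1, SCD, ACLY, FASN and ELOVL6) and 4 in MAD (ME1, MLXIPL, FASN and ELOVL6), and 4 WL libraries remained in either depot. Of all tested genes, 89 of 13804 in GOM and 76 of 13713 in MAD were then called lower. The median log2 fold change of the 10 genes was then -2.11 in GOM and -2.12 in MAD. Adipocyte markers moved less than FASN between WG and WL. Of 8 markers, 1 was lower in GOM (PPARG), 3 in MAD (PNPLA2, PPARG and LIPE) and 1 in RAD (PPARG), while PLIN1 and ADIPOQ were higher in ULB. The summed TPM of the 8 ranged from 4560 to 24439 in WG GOM and 6575 to 15989 in WL GOM, from 11259 to 24872 and 3793 to 18651 in MAD, from 12925 to 31375 and 16630 to 29454 in RAD, and from 8743 to 31921 and 16394 to 31313 in ULB. Among 6 fibroblast markers 2, 4, 3 and 3 were lower in WL in GOM, MAD, RAD and ULB, with COL1A1 at log2 fold changes of -1.98, -2.42, -2.68 and -2.39. In MAD all 7 T and B cell markers were higher in WL, their summed TPM running from 17.5 to 501.7 in WG and from 48.1 to 1094 in WL. Of the other marker lists, 1, 1, 0 and 0 of 8 macrophage genes were lower in WL and 0 higher, 1 of 5 tested endothelial genes was higher in ULB and no other called, 1 of 3 mesothelial genes was lower in MAD, and skeletal muscle genes were lower in MAD (2 of 2 tested) and RAD (1 of 2). Liver genes were higher in GOM (3 of 4) and MAD (1 of 5). Without the libraries high in liver or lymphocyte markers 9 of the 10 lipogenic genes were called lower in both GOM and MAD. The part of cell composition in the lipogenic fold changes was not tested.

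Genes that feed the pathway were examined as lists. Of 13 genes for citrate export and NADPH supply, 5, 9, 7 and 7 were lower in WL than in WG in GOM, MAD, RAD and ULB, and the list's median log2 fold change was -0.68, -0.78, -0.65 and -0.66. Transketolase (TKT), of the pentose phosphate pathway, was the lowest of them in every depot, at -1.40 ± 0.21, -1.53 ± 0.21, -1.39 ± 0.21 and -1.47 ± 0.16, and IDH1 was the 1 member called higher, in ULB (0.60 ± 0.20). Of 18 genes for glucose entry and glycolysis, 6, 7, 6 and 11 were lower and none higher. Among these were the pyruvate dehydrogenase subunit PDHB in GOM (-1.02 ± 0.28), RAD (-0.79 ± 0.26) and ULB (-1.35 ± 0.27), hexokinase HK1 in GOM (-1.01 ± 0.15) and MAD (-1.04 ± 0.15), and the insulin-responsive glucose transporter SLC2A4 in ULB (-0.92 ± 0.22).

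Other genes of fatty acid handling moved in smaller numbers between WG and WL. Of 13 other elongation and desaturation genes, 1, 2, 1 and 2 were lower, ELOVL5 among them in each depot (-1.07 ± 0.21, -1.20 ± 0.22, -0.59 ± 0.14 and -0.65 ± 0.15). Of 16 genes around SREBP and ChREBP, 2, 1, 3 and 1 were lower. These were MID1IP1, the THRSP paralogue, in GOM (-1.01 ± 0.29), RAD (-0.64 ± 0.22) and ULB (-0.93 ± 0.15), the MLXIPL paralogue MLXIP in GOM (-1.0 ± 0.29), MAD (-1.21 ± 0.27) and RAD (-0.96 ± 0.30), and USF2 in RAD (-0.61 ± 0.14). By edgeR 0 of 7 genes for acetyl-CoA and malonyl-CoA handling were called in any depot, with 3, 1, 0 and 1 at an unadjusted p under 0.05 and 0 called by DESeq2. Of 13 genes of AMPK and insulin signalling 0 were called by edgeR, with 0, 6, 5 and 4 at an unadjusted p under 0.05, and DESeq2 called 1, in MAD.

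Weight gain was compared with the normal diet in the same way, and these comparisons share their WG libraries with those above. Calls differed in number between depots: 6 of the 10 rose with weight gain in GOM, where 12.2% of all tested genes were called higher. In MAD 1 gene was called lower (5.29% of all genes), in RAD 2 were called, 1 in each direction (16.7% of all genes in either), and backfat had 0 (2.38% in either). The 10 genes had median log2 fold changes of 0.70, -0.03, -0.11 and 0.50 in GOM, MAD, RAD and ULB, and all tested genes had medians of 0.00, -0.01, 0.00 and 0.01. FASN was not called in any depot, with log2 fold changes of 0.45 ± 0.41, -0.24 ± 0.41, -0.55 ± 0.36 and -0.27 ± 0.41 and edgeR adjusted p from 0.23 to 0.83.

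In GOM, SCD rose 6.45-fold, from 45.7, 152 and 729.6 TPM in NC to 89.3, 1421 and 7157 in WG (log2 fold change 2.69 ± 0.57, edgeR adjusted p = 2.3e-04). THRSP rose 2.85-fold there, from 174, 480.5 and 1397 TPM to 294, 1796 and 5048 (1.51 ± 0.39, edgeR adjusted p = 0.0023). Both pairs of ranges overlapped. ACACA (0.74 ± 0.24), ME1 (0.72 ± 0.28), ELOVL6 (0.69 ± 0.26) and ACSS2 (0.62 ± 0.25) were also higher, ACLY missed the threshold at 0.94 ± 0.40 (edgeR adjusted p = 0.052) and MLXIPL was at -0.83 ± 0.36 (edgeR adjusted p = 0.058). With a term for the libraries under the 88% share, 3 genes were called, SCD at 2.63, FASN at 1.31 and ME1 at 1.12. In that fit 2522 of all 14251 tested genes were called higher. Of the 8 adipocyte markers, 3 were called in GOM, LEP, FABP4 and CIDEC, all higher. PNPLA2 and PPARG, not called, had lower medians in WG (193 and 129 TPM, 168 and 141 TPM in NC and WG). The summed level of the 8 was 4999 to 8892 TPM in NC and 4560 to 24439 in WG. Also called in GOM were 2 of 6 fibroblast, 2 of 5 liver, 1 of 8 macrophage and 1 of 5 endothelial genes. So were 1 of 3 mesothelial, 1 of 5 tested T and B cell and 1 of 2 tested muscle genes. The part of these markers in the difference was not tested.

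In the other depots, SCD was higher in WG in RAD at 1.49 ± 0.40 (edgeR adjusted p = 0.0033) and stood at 1.27 ± 0.49 in MAD (edgeR adjusted p = 0.059). MLXIPL was lower in WG in MAD and RAD. Its NC libraries ran from 13.7 through 62.5 to 114 TPM in MAD and from 9.48 through 50.4 to 75.5 TPM in RAD, and its WG libraries from 5.27 through 32.7 to 107 and from 3.27 through 21 to 99.5. The log2 fold change was -0.96 ± 0.32 in MAD (edgeR adjusted p = 0.029) and -1.03 ± 0.33 in RAD (edgeR adjusted p = 0.013), with wide overlap. Without the libraries under the 88% share it was called in neither depot (-0.99 in MAD and -0.69 in RAD, edgeR adjusted p of 0.052 and 0.38), nor in RAD with the term for them (-0.68, edgeR adjusted p = 0.36). Without those libraries 1 of the 10 genes was still called in MAD, but higher in WG (632 of all 13951 tested genes were called higher). In MAD, DESeq2 and the term for these libraries each called 1 gene higher and 1 lower. Of all 13845 tested genes, DESeq2 called 791 higher and 793 lower, and the fit with the term 685 and 547. Macrophage markers were higher in WG in MAD (8 of 8, summed TPM 184 to 539 in NC and 285 to 1660 in WG) and RAD (4 of 8, 169 to 707 and 309 to 2637). Fibroblast markers were higher in both (2 of 6), 1 of the 7 T and B cell genes was higher in each, liver markers were lower in RAD (4 of 5) and MAD (1 of 4), and 1 adipocyte marker was higher and 1 lower in either depot. The part of these markers in the differences was not tested. SREBF1 was not called between NC and WG in any depot, its log2 fold change lying between -0.61 and -0.01.

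Backfat had 5 NC libraries. There edgeR called 0 of the 10 genes between NC and WG, while 5 had an unadjusted p under 0.05 and DESeq2 called 2. ACLY, at 1.33 ± 0.40, and THRSP, at 1.35 ± 0.44, had edgeR adjusted p of 0.060 and 0.091. The 5 NC libraries, replicates 2, 5, 7, 9 and 12, held 4656, 3305, 14177, 833 and 4961 TPM of SCD and 380, 641, 1249, 150.0 and 619 TPM of THRSP. Replicate 7 was the highest for both genes, and without it SCD (log2 fold change 1.44) and THRSP (1.76) were called. The NC backfat values of MLXIPL, 8.83, 61.4, 14.5, 27 and 47.6 TPM, and of SREBF1, 9.89, 86.4, 35.9, 26 and 79.7 TPM, lay within the WG range.

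Among the genes that feed the pathway, calls between NC and WG were most numerous in GOM, as they were over all tested genes, where 3812, 1477, 2266 and 323 were called in GOM, MAD, RAD and ULB. Of the 18 genes for glucose entry and glycolysis 9 were higher in WG GOM, with PGAM1 at 1.07 ± 0.22, PGK1 at 0.91 ± 0.24 and PDHB at 0.89 ± 0.31, and edgeR and DESeq2 called 0 in MAD, RAD and ULB, where 6, 4 and 4 had an unadjusted p under 0.05. Of the 13 genes for citrate and NADPH supply 2 were higher in GOM, TALDO1 (0.94 ± 0.23) and IDH1 (0.87 ± 0.28), and in RAD 2 were lower, PC (-0.66 ± 0.15) and CS (-0.62 ± 0.09). MID1IP1 was higher in WG in GOM (1.05 ± 0.33), MAD (0.64 ± 0.20) and ULB (0.92 ± 0.20). The difference between depots was not tested for these lists.

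Calorie-restricted pigs were also set against normally fed pigs, which shows where WL lay relative to the NC level. In WL over NC 10 of the 10 genes were lower in MAD, 8 in RAD, and 7 each in GOM and ULB, where 17.8%, 16.6%, 20.7% and 9.37% of all tested genes were called lower. FASN was lower without overlap of ranges in 4 of 4 depots. Its NC libraries held 329, 527 and 1466 TPM in GOM, 232, 1623 and 2887 in MAD and 340.4, 1299 and 2546 in RAD, and the 5 in ULB held 742.5, 939, 2195, 555 and 1866. The log2 fold change was -4.49 ± 0.46, -5.78 ± 0.50, -5.85 ± 0.48 and -4.25 ± 0.64 (edgeR adjusted p from 1.0e-08 to 3.7e-04). MLXIPL was lower at -3.08 ± 0.26, -3.81 ± 0.38, -3.18 ± 0.34 and -2.01 ± 0.44, with ranges apart in GOM and MAD, and ME1 at -2.34 ± 0.31, -3.68 ± 0.36, -3.00 ± 0.23 and -2.37 ± 0.26, with ranges apart in RAD and ULB.

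SREBF1, which passed in 1 depot against WG, was lower than NC in 4 of 4 depots (log2 fold changes from -1.42 to -0.77, edgeR adjusted p from 7.0e-04 to 0.034). ACLY, ELOVL6 and ACSS2 were also lower in 4 of 4, ACACA in MAD and RAD, and SCD and THRSP in MAD alone (-1.96 ± 0.70 and -1.23 ± 0.45). THRSP was at 0.06 ± 0.34 in GOM and 0.31 ± 0.33 in ULB. Without WL MAD replicates 6 and 7, high in T and B cell markers, SCD (-1.73, edgeR adjusted p = 0.070) and THRSP (-0.98, 0.076) were not called in MAD. In MAD 6 of the 10 genes, and 976 of all 14097 tested genes, were called lower when libraries under the 88% share were left out. Of the adipocyte markers 5 of 8 were lower and LEP higher in MAD. Also in MAD, 5 of 8 macrophage and 6 of 7 T and B cell markers were higher. In RAD 4 of 8 adipocyte markers were called, 3 of them lower, and 3 of 8 macrophage markers were higher. In GOM 5 of 8 adipocyte markers were called, and in ULB 2 of 8. The median summed TPM of the 8 in GOM, MAD, RAD and ULB was 7633, 15574, 18099 and 14261 in NC. In WL it was 12920, 15450, 22184 and 22256. Also in GOM 4 of 8 macrophage markers were lower, and in ULB 4 of 6 fibroblast markers were lower. Their part in the lipogenic differences was not tested. Among the genes that feed the pathway, 4, 9, 10 and 7 of the 13 genes for citrate and NADPH supply were lower than in NC. TKT was among them at -1.02 ± 0.18, -1.87 ± 0.21, -1.73 ± 0.18 and -1.31 ± 0.20, as was the citrate carrier SLC25A1 in MAD (-1.34 ± 0.23) and RAD (-1.12 ± 0.23).

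Whether backfat responded differently from the visceral depots was tested with interaction terms in 1 fit over all groups. For WG over NC, 3.88%, 0.883% and 0.372% of all genes differed between ULB and GOM, MAD and RAD, and for WL over WG 0.995%, 6.96% and 0.153%. Without a block, none of the 10 genes passed an adjusted p of 0.05 by edgeR in any of the 6 tests, and 1 or 2 of the 10 had an unadjusted p under 0.05 in each. The nearest was FASN in WL over WG, whose fall was smaller by 1.58 log2 units in ULB than in MAD (SE 0.58, 95% interval 0.45 to 2.71, edgeR adjusted p = 0.077). ACACA gave 0.81 ± 0.30 in the same test (edgeR adjusted p = 0.084), and for SCD the log2 fold change of WG over NC in ULB minus that in GOM was -1.97 (SE 0.74, edgeR adjusted p = 0.093). The outcome changed when the replicate number was a block, over 4 or 5 NC, 30 to 38 WG and 10 WL pairs of libraries. Then 1, 4 and 3 of the 10 genes passed for WG over NC against GOM, MAD and RAD (19.2%, 12.4% and 16.003% of all genes), and 1, 2 and 1 for WL over WG (3.95%, 12.9% and 2.004%). MLXIPL passed in all 3 tests of WG over NC, at 1.54 ± 0.46, 1.85 ± 0.42 and 1.65 ± 0.38 log2 units higher in ULB (edgeR adjusted p of 0.015, 0.0043 and 0.0041). ACLY passed against MAD (1.57 ± 0.38) and RAD (1.16 ± 0.40), THRSP (1.28 ± 0.42) and ELOVL6 (0.96 ± 0.31) against MAD, and SREBF1 against RAD (1.15 ± 0.39). For WL over WG, SCD fell less in ULB than in GOM (1.49 ± 0.46) and MAD (1.45 ± 0.47), ACACA less than in MAD (0.81 ± 0.23), and ELOVL6 more than in RAD (-0.81 ± 0.23). FASN, at 0.45 ± 0.44 against MAD in the blocked fit, was further from the threshold (edgeR adjusted p = 0.55).

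Depots were then compared within each nutritional group, in 18 comparisons. SCD set backfat apart: it was higher in ULB in 9 of 9 comparisons, with log2 fold changes between 1.61 and 4.39, and was called in 12 of the 18 in all. SREBF1 was called in 6 of 18, of which 4 were higher in ULB, and MLXIPL in 0 of 18 by edgeR and by DESeq2, with 3 at an unadjusted p under 0.05 by edgeR.

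In NC, many of the genes were lower in the greater omentum than in the other depots. There 7 of the 10 genes were lower than in MAD (7.49% of all genes called in that direction), 7 than in RAD (9.89%) and 4 than in ULB (13.3%). Adipocyte markers moved with them: 6, 8 and 6 of 8 were also lower in GOM, with median log2 fold changes of 0.92, 1.19 and 0.71 for MAD, RAD and ULB over GOM, against 0.94, 0.94 and 0.58 for the 10 genes. Their summed TPM ran from 4999 to 8892 in GOM, 4088 to 20992 in MAD, 13065 to 33239 in RAD and 12115 to 16880 in ULB. Macrophage markers were higher in GOM (8, 4 and 2 of 8), as were mesothelial (2 of 3, 2 of 2 and 2 of 3 tested) and T and B cell markers (2, 3 and 3 of 5 tested). The part of these markers was not tested. The genes lower in GOM than in RAD were SCD (2.04 ± 0.57), THRSP (1.53 ± 0.38), ELOVL6 (1.12 ± 0.19), ME1 (1.07 ± 0.23), FASN (0.97 ± 0.33), ACSS2 (0.91 ± 0.18) and SREBF1 (0.82 ± 0.23), given as log2 fold changes of RAD over GOM. SCD in NC ran from 45.7 to 729.6 TPM in GOM and from 833 to 14177 TPM in ULB, without overlap (4.39 ± 0.66, edgeR adjusted p = 1.3e-04). SCD was also higher in ULB than in MAD (3.08 ± 0.68, with 4.57% of all genes called higher) and RAD (2.34 ± 0.59, 2.92%). Neither was called without NC ULB replicate 7 (2.40 and 1.67), nor was the difference from RAD without the libraries under the 88% share (3.15). Between NC MAD and NC RAD edgeR called 0 of the 10 (2.41% of all genes), with 0 at an unadjusted p under 0.05, and DESeq2 also called 0. With the replicate number as a block, 1 gene was called between NC GOM and ULB, SCD at 3.58, and 638 of all 14218 tested genes were called higher in ULB. Of the 9 NC GOM libraries 7 were under the 88% share, against 2 of 12 in MAD and 6 of 12 in RAD, and the part of this in the order of depots was not tested.

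In WG, 3 of the 10 genes were higher in ULB than in GOM (7.59% of all genes called higher), SCD (2.47 ± 0.24), SREBF1 (1.28 ± 0.23) and ELOVL6 (0.69 ± 0.14). Against MAD (6.25%) and RAD (5.20%) 2 genes were called, SCD at 2.55 ± 0.25 and 1.61 ± 0.21 and SREBF1 at 0.97 ± 0.23 and 1.06 ± 0.24. With the replicate number as a block ME1 was added against MAD (0.61) and ACLY against RAD (0.72). Among visceral WG depots, SCD was higher in RAD than in GOM (0.86 ± 0.26, 4.11% of all genes called higher) and MAD (0.94 ± 0.28, 1.75%). Between WG GOM and WG MAD edgeR and DESeq2 called 0 of the 10 (6.27% of all genes), with 2 at an unadjusted p under 0.05.

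In WL, ACLY (0.82 ± 0.13), SCD (3.72 ± 0.62) and ME1 (0.79 ± 0.29) were higher in ULB than in GOM (6.16% of all genes called higher), the same 3 were higher than in MAD (5.54%), at 0.75 ± 0.12, 3.76 ± 0.66 and 1.08 ± 0.27, and SCD was higher than in RAD (2.29%), at 2.36 ± 0.63. SCD in WL GOM and WL ULB did not overlap. With the libraries under the 88% share left out, 0 genes were called between ULB and either MAD or RAD. Among visceral WL depots edgeR called 0 of the 10 in 3 comparisons (5.97%, 12.2% and 7.31% of all genes), with 0, 2 and 2 at an unadjusted p under 0.05 and 0, 1 and 0 called by DESeq2. Without WL GOM replicate 10 THRSP was called higher in RAD than in GOM (0.94, edgeR adjusted p = 0.038). With the replicate number as a block SCD (1.29), THRSP (0.92) and ME1 (0.72) were called higher in RAD than in MAD, and 513 of all 13923 tested genes were.

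Within the WG pigs, FASN was set against its regulators from pig to pig, on log2(TPM + 1) values, in 12 relations of 3 regulators by 4 depots. FASN and SREBF1 rose and fell together, with Pearson's r of 0.787, 0.607, 0.579 and 0.754 over 45, 36, 39 and 38 libraries of GOM, MAD, RAD and ULB. Spearman's rho was 0.810, 0.615, 0.607 and 0.758, and the permutation p of r was 1e-05, 1.4e-04, 1.3e-04 and 1e-05 (adjusted over the 12 relations 6e-05, 2.8e-04, 2.8e-04 and 6e-05), where 1e-05 is the smallest that the permutations can give. Without the 2 libraries farthest from the median of SREBF1, r was 0.759, 0.524, 0.529 and 0.714. FASN and MLXIPL gave r of 0.561, 0.590, 0.552 and 0.588, with rho of 0.639, 0.589, 0.553 and 0.603 and an adjusted permutation p of at most 3.9e-04, and r stayed between 0.537 and 0.598 without 2 libraries.

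THRSP followed FASN less closely. Its r with FASN was 0.252, 0.406, 0.365 and 0.157 over the same depots, with adjusted permutation p of 0.10, 0.019, 0.026 and 0.35. Its rho was 0.279, 0.326, 0.355 and 0.204, with adjusted permutation p of 0.070, 0.064, 0.035 and 0.22. Without 2 libraries r was 0.337, 0.404, 0.323 and 0.216. The difference between the regulators' correlations was not tested.

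**Figure D3:**
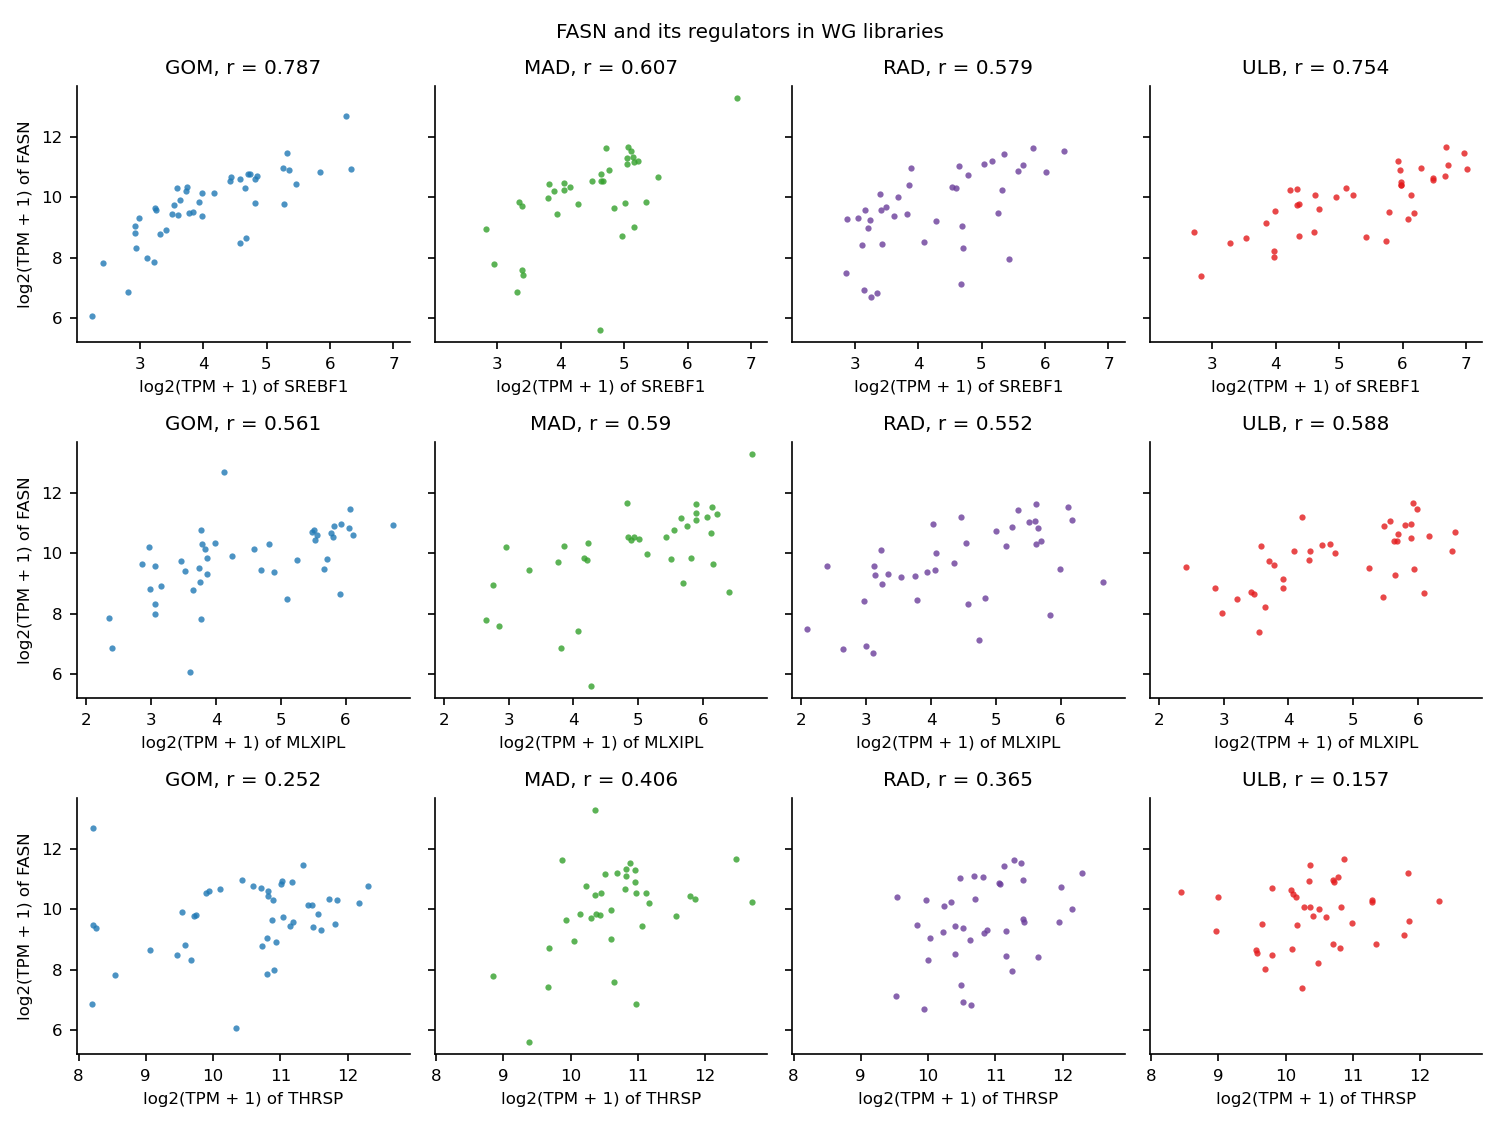
FASN against SREBF1, MLXIPL and THRSP in WG pigs on log2(TPM + 1) axes, each point 1 library, coloured by depot, with Pearson's r by depot. The r values lie between 0.579 and 0.787 for SREBF1, between 0.552 and 0.590 for MLXIPL and between 0.157 and 0.406 for THRSP.

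Over all 236 libraries, with each gene centred within its 12 groups, the 10 genes fell into partly separate patterns, given here as descriptions over libraries that share pigs. Spearman's rho was 0.823 for ACLY with ACSS2, 0.820 for ACLY with ACACA, 0.822 for SREBF1 with MLXIPL and 0.743 for FASN with ME1. THRSP went with ACACA (0.746) and SCD (0.717), whereas MLXIPL and SCD gave -0.076. The mean of the 10 genes was most like that of SLC25A1 (rho 0.776), the mitochondrial citrate carrier, among all other expressed genes. Others among the most alike were DGAT2 (0.759), FAH (0.744), VDAC1 (0.743), ENSSSCG00000040337 (0.732), TKT (0.714) and KLHL31 (0.696). The rho of single members with the mean of the adipocyte markers lay between 0.092 and 0.319.

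The A-B index describes, for each 20 kb bin of the genome, whether its Hi-C contacts lie with the open, active A compartment (positive values) or the closed B compartment (negative values). The bins holding the gene starts of 8 members were above 0 in 240 of 240 libraries. SREBF1 had the highest group means (5.58 to 6.23), followed by FASN (4.74 to 5.31), ACLY (4.59 to 5.17), MLXIPL (4.07 to 4.90) and ACSS2 (3.32 to 3.54). THRSP (1.93 to 3.28), SCD (1.15 to 2.13) and ELOVL6 (0.71 to 1.93) were lower. ACACA, at group means of -0.63 to 0.48, was above 0 in 86 of 240 libraries, and ME1, at -1.16 to -0.48, in 10 of 240, although both were expressed in every group. The start bin holds 123 of the 190018 bases of ME1, 1331 of 151410 of ELOVL6 and 15067 of 294152 of ACACA. For these genes the index is that of the bin and not of the whole gene.

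Between nutritional groups 3 of 120 tests on these bins passed an adjusted p under 0.05 by limma with a difference over 0.75. By the same rule 1139 to 17921 of all 113298 bins were called in a single comparison. With a quantile-normalised index more of the genes' bins were called, as given below under the dependence on processing. With the index as deposited, all 3 calls were THRSP. Its bin fell by 0.94 from NC to WL in MAD (means 3.17 and 2.24, SE 0.23, limma adjusted p = 0.0041) and by 0.92 in RAD (3.12 and 2.20, SE 0.25, limma adjusted p = 0.0063). In ULB it rose by 0.77 from WG to WL (2.09 and 2.86, SE 0.23, limma adjusted p = 0.0075). In these comparisons 11.2%, 15.8% and 9.96% of all 113298 bins were called in either direction. Of the called bins, 11135 of 12676, 17254 of 17921 and 3304 of 11279 rose. The median difference over the start bins of all genes was 0.30, 0.36 and 0.08. The start bin holds 88 of the 4411 bases of THRSP. With the mean over all bins that overlap the gene, the MAD difference turned from a fall to 0.06 (limma adjusted p = 0.81), the RAD difference was -0.06 (0.79), and the ULB difference, at 0.65 (0.0015), was under the limit of 0.75. With a quantile-normalised index the ULB difference was 0.56 (limma adjusted p = 0.093). FASN, whose RNA fell 15.5-fold or more in WL, had no called difference in its bin.

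Between depots 4 of 180 tests passed, and 1208 to 23188 of the 113298 bins were called in a single comparison. This range and the shares of bins that follow are for either direction. THRSP was lower in ULB than in MAD and RAD in NC (differences of -1.25 ± 0.39 and -1.19 ± 0.36, limma adjusted p of 0.039 and 0.027), where 11.2% and 14.9% of bins were called, and lower than in GOM in WG (-0.76 ± 0.16, limma adjusted p = 1.3e-05, 18.8% of bins). ACACA was higher in RAD than in GOM in NC, crossing from a mean of -0.52 to 0.48 (SE 0.22, limma adjusted p = 0.0014, 18.6% of bins). The 5 NC backfat libraries entered both NC comparisons of THRSP, and neither was called without NC ULB replicate 2, 7 or 12 (differences from -0.78 to -1.22) or with the replicate number as a block (-1.17 and -0.97, limma adjusted p of 0.13 and 0.16).

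**Figure D4:**
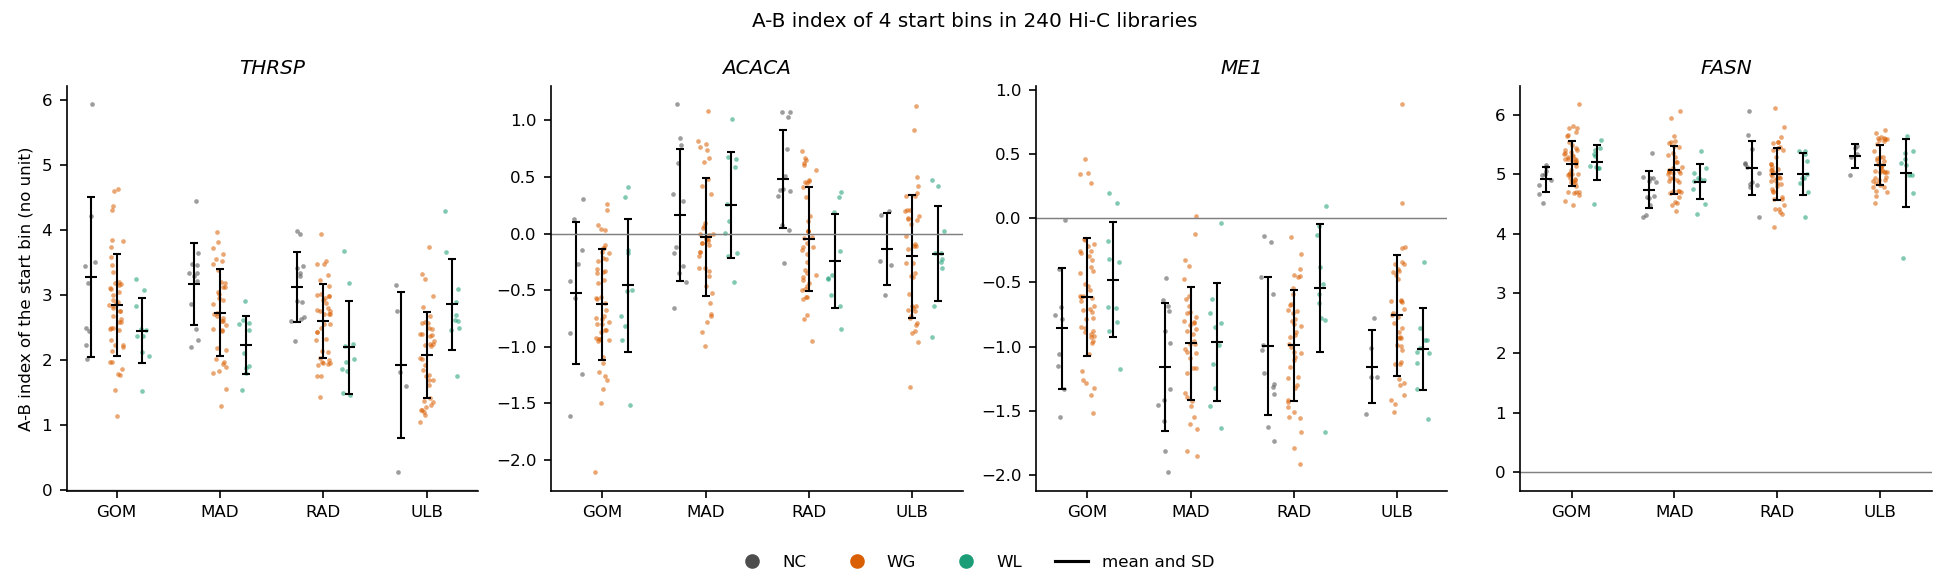
A-B index of the 20 kb bins holding the starts of THRSP, ACACA, ME1 and FASN in the 12 groups, as mean and SD over Hi-C libraries, with positive values marking the A compartment. Group means lie between 4.74 and 5.31 for FASN and between -1.16 and -0.48 for ME1, and THRSP means span 1.93 to 3.28.

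H3K27ac, a histone mark of active enhancers and promoters, was available as regions that the ROSE program had stitched from peaks and ranked by signal, with the top regions named super-enhancers. Each table pooled the reads of 1 to 11 H3K27ac libraries, so there were no replicates and no test. A region lay within 10 kb of FASN, ACACA, ELOVL6, MLXIPL and ACSS2 in 18 of 18 tables, of ACLY, SCD and THRSP in 17, of SREBF1 in 14 and of ME1 in 13. Of 18683 genes, 65.3% to 85.6% had such a region, depending on the table. In the NC tables of GOM, MAD, RAD and ULB, 10, 10, 9 and 10 of the 10 genes had one, and 82.6%, 79.6%, 85.6% and 81.4% of all genes. Super-enhancers lay near SREBF1 in 11 tables, FASN in 9, ACLY in 4, MLXIPL in 3, ACSS2 in 2 and THRSP in 1, and near ACACA, SCD, ELOVL6 and ME1 in 0, while 5.73% to 27.8% of all genes had one. In the NC depots, 3, 1, 5 and 5 of the 10 genes had a super-enhancer, and 20.3%, 15.6%, 27.8% and 19.5% of all genes.

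In WL, where FASN RNA was lowest, H3K27ac regions were still present near the gene. The highest-ranked region within 10 kb of FASN had a ratio of H3K27ac to input signal of 1.36 to 1.85 in the 4 NC tables, of 1.57 to 3.23 in the 10 WG tables and of 4.33, 3.94, 3.33 and 4.32 in WL GOM, MAD, RAD and ULB. The median ratio of all regions also differed between the tables, from 1.48 to 1.71 in NC, from 1.55 to 1.81 in WG and from 1.85 to 1.92 in WL. Such ratios were not particular to FASN. The highest ratio over the tables was 4.9 for ACACA, 4.36 for SREBF1, 4.31 for ACLY, 4.25 for ELOVL6, 4.21 for THRSP and 4.16 for ACSS2. It was 3.53 for MLXIPL, 2.97 for SCD and 2.8 for ME1. In WL GOM the FASN region, 63.6 kb long, carried the super-enhancer label at rank 627 of 22783. In NC RAD it was 780.0 kb long and so covered many other genes. SREBF1 had a region at rank 35 in both WG GOM (1 of 3 tables) and WL GOM, with ratios of 2.62 and 4.36, and none within 10 kb in the tables of NC RAD, WL RAD, WL ULB and 1 of the 3 WG GOM tables.

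**Figure D5:**
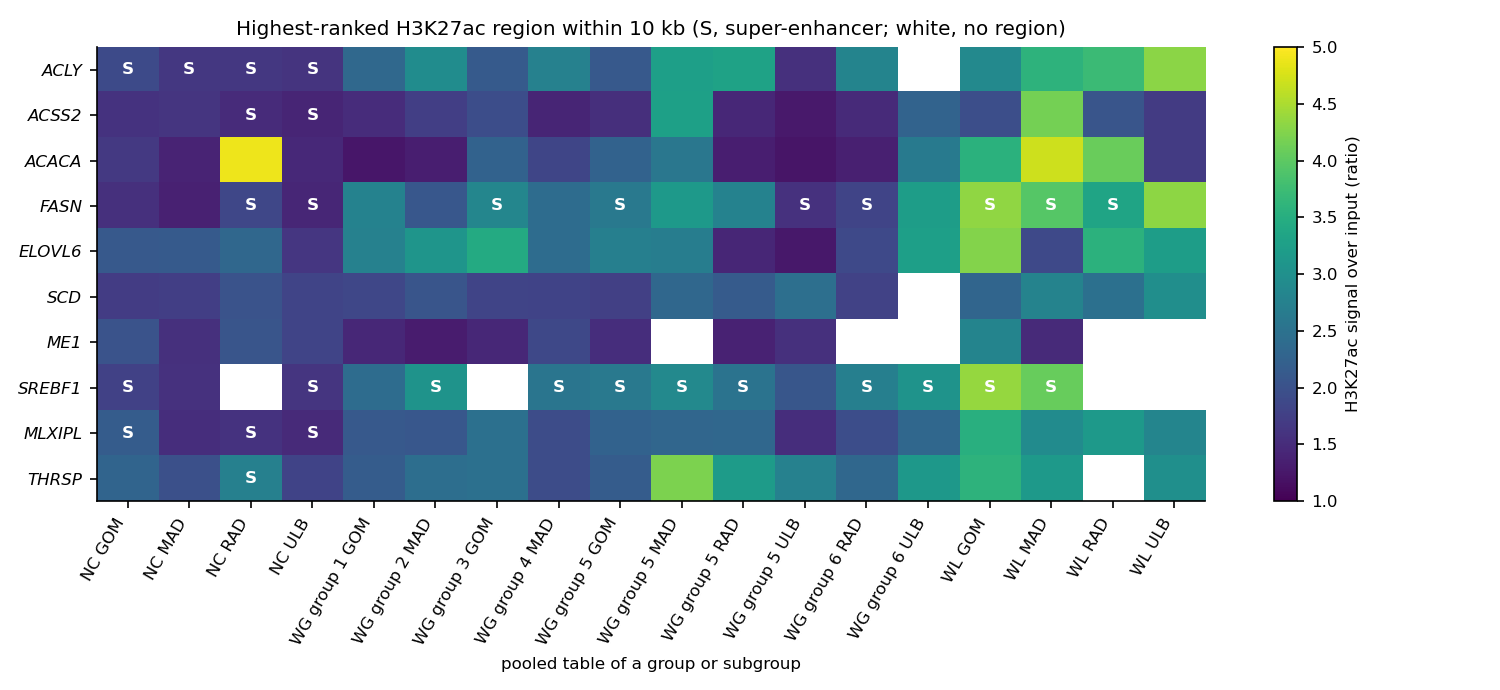
Ratio of H3K27ac to input signal of the highest-ranked region within 10 kb of each of the 10 genes in the 18 pooled tables, with S for a super-enhancer and white for no region. FASN ratios reach 3.33 to 4.33 in the 4 WL tables, the highest ratio of all is 4.9, for ACACA, and 30 of the 180 squares carry an S.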

How the data were processed

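RNA-seq, Hi-C and H3K27ac ChIP-seq data of pig adipose tissue were taken as deposited. The authors estimated transcript abundance with kallisto 0.43.0 and summarised it per gene with tximport, giving deposited estimated counts and TPM per coding gene. The counts were rounded to whole numbers, and 17.8% of the deposited estimated counts were 0. The A-B index was deposited as a score per 20 kb bin of the 18 autosomes. For H3K27ac the authors mapped reads with BWA 0.7.15, removed duplicates with SAMtools 1.3.1, called peaks with SICER and stitched them within 12.5 kb with ROSE, leaving out 2 kb on each side of gene starts, and the deposited signal is per region over pooled reads. Tables of counts, TPM and A-B index held 9 columns each whose names matched no label, which were not used.

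Groups came from the sample labels. The genes and gene lists were chosen with earlier results of these data known. All 10 genes are named, and from each other list at most 3 called genes per comparison and direction with the largest absolute log2 fold change. The 8 genes most like the mean of the 10 genes were chosen by Spearman's rho. Some genes that these rules pick are not reported here. Ensembl identifiers matched a symbol for 14821 of 21280 genes and for 10 of 10 members. The T and B cell, fibroblast, macrophage, endothelial, mesothelial, liver, muscle, mammary and adipocyte lists served as marker checks.

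Counts were tested with edgeR 4.0.16 (quasi-likelihood test, TMM) in R 4.3.3, on the groups compared, and the A-B index with limma 3.58.1. DESeq2 1.42.0, RLE scaling, no low-value filter, a term for and the removal of libraries under 88% of TPM on coding genes, leaving out each NC ULB replicate, leaving out libraries with over 5000 TPM of liver or 500 TPM of T and B cell markers (chosen after seeing the data), other fold limits and a replicate block were alternatives. Fits were tested on simulated data. In the simulation of NC against WG in ULB, on 13600 genes, 66% of changes of 1 log2 unit and 92% of changes of 2 log2 units were recovered. Correlations used 100000 permutations, two-sided. Replicate numbers are shared between depots, and same-numbered samples deviated together in every pair (correlation above 0.1) in 4 of 18 RNA-seq depot comparisons (NC GOM with ULB, WG MAD with ULB, WG RAD with ULB, WL MAD with RAD) and in 0 of 18 for Hi-C. In RNA-seq of WG the median correlation of same-numbered samples was 0.556 to 0.637 in each depot comparison, against -0.096 to -0.028 for other numbers. Same-numbered medians were 0.028 to 0.25 in NC and 0.139 to 0.385 in WL. Tests without the block do not use this pairing. Where pigs of a group were not stated to be separate, p-values measure the spread between these samples only. Sequences came from Sscrofa11.1 (RefSeq). Python 3.11.15, numpy 2.4.6, pandas 2.3.3, scipy 1.17.1 and matplotlib 3.10.9 were used for the rest.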

Additional observations from a re-analysis of the deposited data

Results flagged for a closer look

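Single libraries stood far from the others of their group in 10 of 120 groups of 4 to 10 libraries, each checked for the gap of its highest or lowest value. For normally distributed values chance alone does so in about 1 in 20 such groups. The TPM values were not transformed, so this rate need not hold for them. WL GOM replicate 4 was high for 3 of the genes: ELOVL6 at 448 TPM (others 84.8 to 278), SREBF1 at 31.1 TPM (others 4.35 to 17.7) and ACSS2 at 78 TPM (others 38.6 to 55.1). In WL ULB, replicate 1 held 279 TPM of FASN (others 9.01 to 140) and replicate 3 held 56.1 TPM of SREBF1 (others 5.46 to 29.7). THRSP was at 1397 TPM in NC GOM replicate 5 (others 174 to 755) and at 2528 TPM in WL MAD replicate 9 (others 106 to 1016). In Hi-C, the FASN bin had an A-B index of 4.51 in WL GOM replicate 8 (others 5.10 to 5.58) and of 3.59 in WL ULB replicate 10 (others 4.68 to 5.63), and the ME1 bin one of -1.67 in WL RAD replicate 9 (others -0.79 to 0.09).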

How the results depend on the processing

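Counts of called genes that moved by more than 1.5 times are given here, and the cause was not tested. With libraries under the 88% share left out, the count was 5 for WL over WG in GOM and 4 in MAD, 6 for WL over NC in MAD, 1 for WG over NC in RAD, and 0 for NC RAD with ULB, WL MAD with ULB and WL RAD with ULB. A term for these libraries gave 3, 2 and 1 for WG over NC in GOM, MAD and RAD and 2 for WL RAD with ULB. DESeq2 gave 2 for WG over NC in MAD and in ULB, 2 for NC MAD and NC RAD with ULB, and 1 for WL GOM with RAD, and no low-value filter gave 1 for WG over NC in ULB. Without the 5 libraries high in liver or T and B cell markers (added once the data had been seen) 1 gene was called for WL GOM with RAD. Without the fold limit it was 1, 2, 4 and 2 for WG GOM with MAD, WG GOM with RAD, WG RAD with ULB and WL RAD with ULB. Leaving out each NC ULB replicate gave 0 to 2 for WG over NC, 2 to 4 for NC GOM with ULB, 0 to 1 for NC MAD or NC RAD with ULB, and 2 to 4 A-B index calls between depots. With a quantile-normalised index, gene means or a difference of 0.5, 6, 1 and 12 bins were called between diets, and 8 and 17 between depots with the latter settings. Super-enhancers alone left 30 pairs of gene and table. For FASN with THRSP, r was 0.342 in MAD on residuals of adipocyte markers (adjusted permutation p = 0.050) and 0.432 in GOM at or above the share limit (0.0056).

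With the replicate number as a block, 4 genes were called for NC GOM with MAD, 1 for NC GOM with ULB, 4 for NC MAD with ULB, 2 for NC RAD with ULB, 2 for WL GOM with RAD and 3 for WL MAD with RAD. In the same order 2118 of 14131, 1222 of 14218, 1190 of 14390, 235 of 14583, 1925 of 14018 and 1530 of 13923 tested genes were called in either direction. Of these comparisons, same-numbered samples deviated together in every pair in NC GOM with ULB and WL MAD with RAD. The block changed no other count of genes between depots by over 1.5 times. In the tests of the diet effect between depots, 0 without a block, it gave 1, 4 and 3 for WG over NC and 1, 2 and 1 for WL over WG (ULB against GOM, MAD and RAD), an analysis added once the data had been seen. For the A-B index 4 bins were called between depots with the block. These were not the same 4 as without it, since both NC differences of THRSP were lost.

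Uncalled log2 fold changes turned sign as follows. For WG over NC, SREBF1 in GOM was 0.002 without a filter and 0.50 with the share term. In MAD, ELOVL6 was 0.018 without a filter and 0.076 at or above the share limit, ME1 was 0.047 there, and ACSS2 was 0.0735 there and 0.036 with the share term. In ULB, SREBF1 was 0.20 at or above the share limit and -0.39 to 0.27 with each NC replicate left out, and MLXIPL was 0.54 at or above the limit, 0.12 with the share term, and -0.30 to 0.37 with each NC replicate left out. Both were above 0 without replicates 5 and 12. Without the libraries high in liver or lymphocyte markers, ELOVL6 for WG over NC in MAD was 0.0137 and THRSP for WL over NC in GOM -0.042. THRSP in WL over NC was -0.027 in GOM with the share term and -0.033 in ULB at or above the limit, and was -0.0015 for WL RAD over MAD at or above the limit. Its called A-B index difference between NC and WL in MAD became 0.0605 with gene means. RLE scaling moved the median of all genes by at most 0.04 log2 units.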
